A study of Homo sapiens with 4 samples.

Results

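Genes of the endoplasmic reticulum (ER) folding and stress machinery were examined in OVCA420 cells, an established line of epithelial ovarian cancer, during treatment with transforming growth factor β1 (TGF-β1). The set held 35 genes, taken by symbol, and was chosen with earlier results of these data known. All 35 were found among the 33694 genes of the count matrices. They were grouped by role into 11 chaperones and cochaperones of the ER lumen, 5 disulfide and prolyl isomerases, 11 genes of the translocon and signal peptidase, 3 genes comprising *XBP1* and ER-associated degradation, and 5 genes of the ATF4-CHOP branch. The 4 libraries of 10x Genomics 3′ scRNA-seq were an untreated culture (Ctrl) and cultures given 10 ng/mL TGF-β1 for 1, 3 or 7 days (1-day, 3-day and 7-day), and the treatments were started so that all cultures were collected together. Each condition was 1 library of 1 cell line, so that the effect of treatment and the difference between cultures or libraries cannot be told apart, and no test between conditions was possible. The intervals given below are 95% intervals that cover counting error only.

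The ER folds the proteins that a cell secretes or places in its membranes. Polypeptides enter through the SEC61 channel, lose their signal peptide, and are then folded by chaperones and by isomerases that form disulfide bonds. When unfolded proteins accumulate, 3 sensors start the unfolded protein response: ATF6 and IRE1, the latter by splicing *XBP1* mRNA, induce chaperones and degradation genes, while PERK slows translation and favors ATF4, which induces amino acid genes and the transcription factor CHOP (encoded by *DDIT3*). UMI counts per gene measure neither the splicing of *XBP1* nor the translation of *ATF4*.

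The first 3170 of 10710 listed cells, in barcode order, were read, and 3144 were retained. Retained cells summed to between 25382817 and 32949874 UMIs per library, with a median depth per cell from 30270 UMIs (Ctrl) to 43553 (3-day). *EPCAM*, the epithelial adhesion molecule, was between 296.7 and 361 CPM (UMIs of the gene per 1000000 UMIs of the library) in the 4 libraries and *KRT8*, *KRT18* and *KRT19* were at 519 CPM or above, whereas the ovarian lineage marker *PAX8* was at 0.33 CPM or below and *MUC16* at 2.97 CPM or below. The summed level of 4 leukocyte markers was 1.77, 3.00, 4.79 and 6.22 CPM in Ctrl, 1-day, 3-day and 7-day, that of 3 endothelial markers was 5.40 CPM (Ctrl) and at or below 0.47 CPM in the treated libraries, and that of 4 fibroblast markers was at or below 1.37 CPM in all 4 libraries. *PMEPA1*, a target and inhibitor of TGF-β1 signaling, was 66.8 CPM (Ctrl) and 1501 CPM (1-day). The cells differed in cell cycle between libraries, with 18.5%, 72.7%, 43.3% and 32.9% of cells called G1 in Ctrl, 1-day, 3-day and 7-day, and levels within each phase are therefore given beside the results. Between 1 and 7 cell barcodes were shared by any pair of libraries among the cells read.

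The folding machinery was higher after 1 day of TGF-β1 and lay closer to Ctrl at 3 and 7 days, whereas genes of the ATF4-CHOP branch were not higher at 1-day as a group. A gene was counted as past the fold where its CPM differed by at least 1.5-fold and the exact interval of the ratio lay on the same side of 1, among the 7747 genes with a mean of at least 10 CPM. Of the 35 members 34 met that level, and *CHAC1* did not. At 1-day, 17 of 34 members (50%) rose and 0 fell against Ctrl, beside 16.9% of all genes tested that rose and 17.8% that fell. At 3-day, 9 members (26.5%) rose and 0 fell, beside 19.1% and 10.6% of all genes. At 7-day, 8 members (23.5%) rose and 0 fell, beside 21.2% and 9.55%. The share of members that rose at 7-day was thus near that of all genes. These 3 comparisons share the Ctrl library. The median log2 ratio of the members to Ctrl was 0.58, 0.38 and 0.32 at the 3 times, and that of all genes tested was -0.04, 0.06 and 0.11.

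Between 1-day and 3-day, 7 members (20.6%) fell and 2 (5.88%) rose, beside 5.43% of all genes that fell and 13.3% that rose. The members that fell were *HSPA5*, *MANF*, *DNAJC3*, *CRELD2*, *SDF2L1*, *SEL1L* and *HERPUD1*, and those that rose were *DNAJB9* and *TRIB3*. In G1 and in G2M cells alone *HERPUD1*, *SEL1L* and *DNAJB9* were not past the fold. From 1-day to 3-day *HERPUD1* was 74.8 and 58.5 CPM in G1 and 39.7 and 30.5 CPM in G2M cells. *SEL1L* was 31.7 and 24.4, then 23.7 and 17.1 CPM, and *DNAJB9* 16.5 and 24.1, then 12.2 and 18.3 CPM. In S cells *SDF2L1* was not past the fold, at 580 and 413 CPM. Between 3-day and 7-day, 0 members passed the fold in either direction, beside 3.67% of all genes that rose and 2.65% that fell. The library with the highest level was 1-day for 21 of the 35 members, 7-day for 8, 3-day for 5 and Ctrl for 1, the last being *XBP1*. This count uses no fold threshold and includes nearly level members such as *ASNS*, with 1.18-fold between its highest and lowest library. The same count over all genes was not made, so it describes the members only. The summed level of all 35 members was 0.507% (Ctrl), 0.761% (1-day), 0.652% (3-day) and 0.617% (7-day) of all UMIs.

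**Figure D1:**
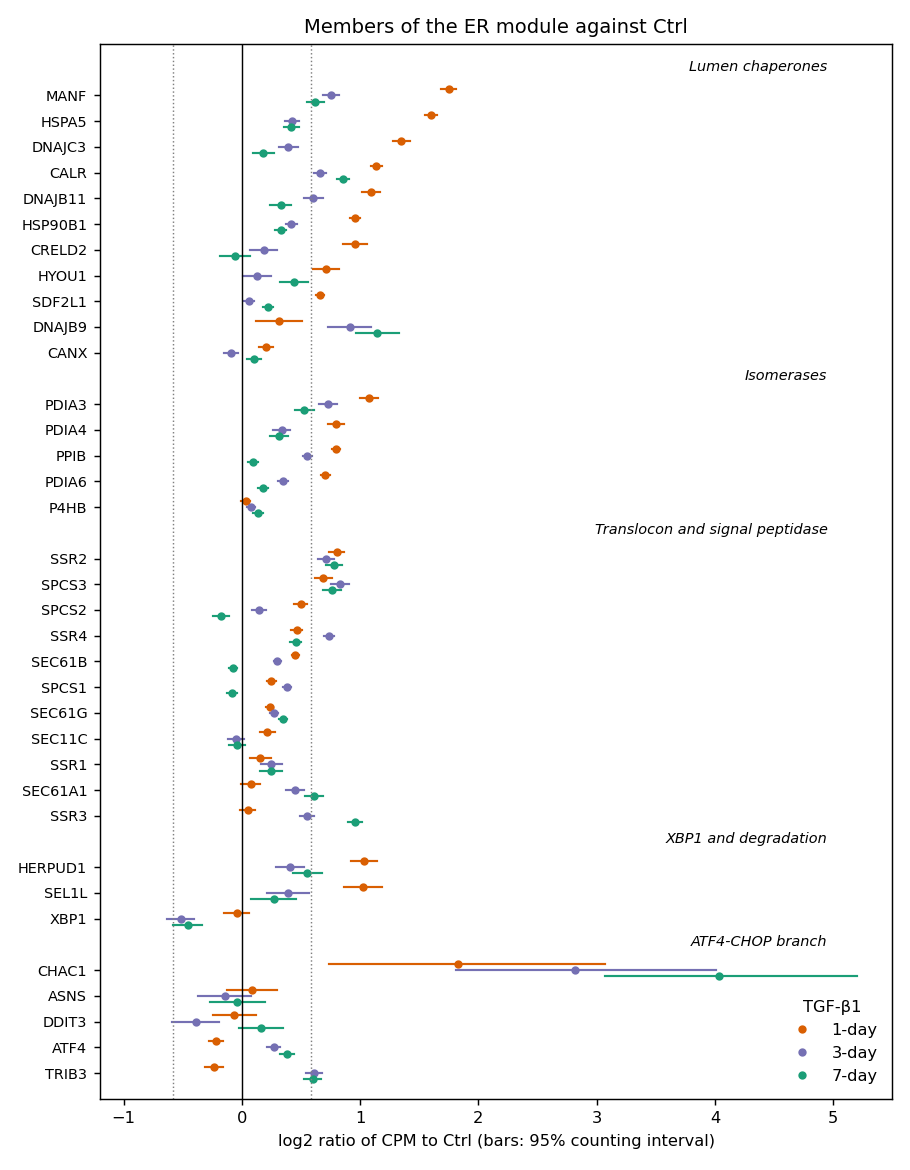
Log2 ratio of CPM to Ctrl for each of the 35 members (vertical axis, by branch) at 1-day, 3-day and 7-day (colors). Points are ratios, bars are 95% counting intervals and dotted lines mark 1.5-fold. Most lumen chaperones and isomerases lie farther right at 1-day (*MANF* at 1.75) than later, whereas *TRIB3*, *SSR3* and *DNAJB9* lie farther right at the later times. *CHAC1*, below the level set for the counts, lies farthest right of all members at each time (1.82, 2.82 and 4.04).

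Promoters of members were inspected for the response elements named for this pathway, because the members that rose at 1-day and those that did not could then be set beside their sequence. The ER stress response element (ERSE, bound by ATF6 with NF-Y) was searched as CCAAT and CCACG separated by 9 bases, ERSE-II as ATTGG and CCACG separated by 1 base, the unfolded protein response element (UPRE) as TGACGTGG, and the ATF4 element (CARE) as TGATG, 1 base and AA, on both strands of the 300 bases from 250 before to 50 after each RefSeq start (GRCh38.p14). Promoters were found for 33 of the 35 members; *PDIA3* and *SPCS1* were not matched. An ERSE or ERSE-II was present at a start of 10 of these 33 members, of 7 of the 11 lumen chaperones and of 0.161% of the 27305 genes searched. The members were not drawn at random from all genes, so these shares describe them only. The elements are printed below in the reading direction of the motif, with the bases of the motif in capitals.
HSPA5 ERSE, chr9:125241391-125241409: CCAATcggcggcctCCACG
HSP90B1 ERSE, chr12:103930216-103930234: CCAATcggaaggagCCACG
HSP90B1 ERSE, chr12:103930321-103930339, antisense: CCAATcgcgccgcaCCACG
CALR ERSE, chr19:12938384-12938402, antisense: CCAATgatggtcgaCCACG
CANX ERSE, chr5:179698778-179698796: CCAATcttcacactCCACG
CRELD2 ERSE, chr22:49918554-49918572, antisense: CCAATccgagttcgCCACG
PDIA6 ERSE, chr2:10812853-10812871: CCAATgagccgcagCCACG
XBP1 ERSE, chr22:28800603-28800621: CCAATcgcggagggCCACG
SDF2L1 ERSE-II, chr22:21642114-21642124, antisense: ATTGGtCCACG
HYOU1 ERSE-II, chr11:119057380-119057390, antisense: ATTGGaCCACG
HYOU1 ERSE-II, chr11:119057274-119057284, antisense: ATTGGaCCACG
HERPUD1 ERSE-II, chr16:56932025-56932035: ATTGGgCCACG

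Of the 10 members with an ERSE or ERSE-II, 8 rose at 1-day and 2 did not (*CANX* and *XBP1*). Of the 22 tested members with a promoter but neither of these elements, 8 rose as well, beside 16.9% of all genes. These 8 were *MANF*, *DNAJC3*, *DNAJB11*, *PDIA4*, *PPIB*, *SSR2*, *SPCS3* and *SEL1L*, which held none of the 4 elements; this says only that the letters were not in these windows. At 3-day, 1 of the 10 (10%) and 7 of the 22 (31.8%) rose, beside 19.1% of all genes. The same counts rose at 7-day, beside 21.2% of all genes. Whether the 2 sets of members differed was not tested. A UPRE was found for *HYOU1*, *SSR3* and *SSR4*, and in 0.927% of all genes; that of *HYOU1* overlaps its farther ERSE-II. A CARE was found for *ASNS*, *CHAC1* and *HERPUD1*, and in 4.46% of all genes. Where a gene had several RefSeq starts, the start with the most elements was used for the elements above and the sequences below. The 250 bases before the start are shown, 5′ to 3′ in the direction of the gene and with motif bases in capitals. They are given for *HSPA5*, which had the second largest 1-day ratio of the tested members, and for 4 other members with different sets of elements.
HSPA5, minus strand, chr9:125241344-125241593, ERSE: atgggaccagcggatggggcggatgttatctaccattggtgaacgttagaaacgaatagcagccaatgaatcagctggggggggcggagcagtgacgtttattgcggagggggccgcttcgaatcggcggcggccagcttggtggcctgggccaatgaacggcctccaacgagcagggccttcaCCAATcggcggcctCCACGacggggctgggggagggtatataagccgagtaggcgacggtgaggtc
HSP90B1, plus strand, chr12:103930160-103930409, ERSE on each strand: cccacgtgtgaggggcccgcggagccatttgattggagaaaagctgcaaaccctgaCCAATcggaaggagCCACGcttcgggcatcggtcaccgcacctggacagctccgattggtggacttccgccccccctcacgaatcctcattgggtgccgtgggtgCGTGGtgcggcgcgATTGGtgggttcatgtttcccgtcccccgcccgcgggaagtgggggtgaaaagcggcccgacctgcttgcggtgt
HYOU1, minus strand, chr11:119057206-119057455, ERSE-II and UPRE: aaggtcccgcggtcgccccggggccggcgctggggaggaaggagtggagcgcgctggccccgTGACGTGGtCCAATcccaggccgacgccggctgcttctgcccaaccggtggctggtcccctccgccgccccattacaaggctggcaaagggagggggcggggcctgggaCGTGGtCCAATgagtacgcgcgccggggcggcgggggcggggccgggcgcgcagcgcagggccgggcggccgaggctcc
HERPUD1, plus strand, chr16:56931892-56932141, CARE and ERSE-II: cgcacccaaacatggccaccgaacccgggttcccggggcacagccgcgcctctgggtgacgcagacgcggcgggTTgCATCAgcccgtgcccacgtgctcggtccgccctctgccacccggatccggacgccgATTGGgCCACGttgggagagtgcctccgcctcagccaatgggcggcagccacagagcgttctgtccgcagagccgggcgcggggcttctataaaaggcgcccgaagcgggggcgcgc
CHAC1, plus strand, chr15:40953221-40953470, CARE: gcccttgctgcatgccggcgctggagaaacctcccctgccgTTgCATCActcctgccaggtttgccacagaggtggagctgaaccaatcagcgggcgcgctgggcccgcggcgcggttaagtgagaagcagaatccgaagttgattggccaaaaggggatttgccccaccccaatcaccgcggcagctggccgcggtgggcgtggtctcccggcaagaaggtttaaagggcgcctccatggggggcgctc

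Chaperones and cochaperones of the lumen made up the branch with the most members past the fold at 1-day. At 1-day 9 of 11 rose (81.8%), at 3-day 4 (36.4%) and at 7-day 3 (27.3%), beside 16.9%, 19.1% and 21.2% of all genes. At these times 0 fell, beside 17.8%, 10.6% and 9.55% of all genes. Their summed level was 1309 CPM (interval 1296 to 1322) for Ctrl, 2653 CPM (2635 to 2670) for 1-day, and 1669 and 1712 CPM for 3-day and 7-day. Between 1-day and 3-day, 5 of the 11 fell (45.5%) and 1, *DNAJB9*, rose (9.09%), beside 5.43% and 13.3% of all genes.

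*HSPA5* (ENSG00000044574, chromosome 9, 125234853 to 125241382) encodes BiP, the HSP70 of the ER lumen and the chaperone that holds the sensors inactive. Its level was 129.9 CPM (interval 125.8 to 134) for Ctrl, 393 CPM (386 to 399) for 1-day, 174 CPM (169 to 179) for 3-day and 174 CPM (168 to 179) for 7-day. The 1-day library stood apart from the other 3, and the intervals of 3-day and 7-day overlapped. The log2 ratio to Ctrl was 1.60 (1.54 to 1.65) at 1-day and 0.42 at both later times. Within cells called G1, S and G2M, *HSPA5* was 156, 121.1 and 129.1 CPM in Ctrl and 405, 436 and 326 CPM at 1-day. In the same order of phases its log2 ratio was 0.49, 0.35 and 0.03 at 3-day and 0.39, 0.60 and 0.08 at 7-day.

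*MANF*, a secreted cofactor that binds BiP, had the largest ratio among the tested members. It was 90.5 (Ctrl), 304 (1-day), 153 (3-day) and 139 CPM (7-day). All treated libraries lay above Ctrl, and its log2 ratio was 1.75 (1.69 to 1.81) at 1-day, 0.76 at 3-day and 0.62 (0.55 to 0.69) at 7-day. *DNAJC3*, a J-domain cochaperone also known as P58IPK, was 69.9, 178, 91.9 and 79.2 CPM in Ctrl, 1-day, 3-day and 7-day, so that it was high in the 1-day library alone. *DNAJB11*, another J-domain partner of BiP, was 67.9, 145, 103 and 85.2 CPM. Its log2 ratio was 1.09 at 1-day, 0.60 at 3-day and 0.33 at 7-day.

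*HSP90B1*, the HSP90 of the ER lumen (GRP94), was 221 (Ctrl), 429 (1-day), 295 (3-day) and 277 CPM (7-day). It was past the fold at 1-day (log2 ratio 0.96, 0.92 to 1.00) and not at 3-day (0.42) or 7-day (0.33). Calreticulin (*CALR*), a lectin chaperone of glycoproteins, rose at all 3 times, with 171, 375, 271 and 309 CPM in Ctrl, 1-day, 3-day and 7-day. Calnexin (*CANX*), its membrane-bound counterpart, was 155, 178, 145 and 166 CPM and passed the fold at no time. The soluble and the membrane lectin thus had log2 ratios of 1.13 and 0.20 at 1-day. An ERSE was found for both genes, and whether it is used in these cells was not tested.

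*SDF2L1*, a partner of the J-domain cochaperones, was 316, 499, 329 and 368 CPM in Ctrl, 1-day, 3-day and 7-day. *CRELD2*, an ER-resident protein with disulfide isomerase activity, was 39.6, 76.8, 45.0 and 38.1 CPM. *HYOU1*, a nucleotide exchange factor of BiP (GRP170), was 35.7, 58.6, 39.1 and 48.4 CPM. All 3 genes rose at 1-day, with log2 ratios of 0.66, 0.95 and 0.71, and over all cells none of the 3 was past the fold at 3-day or 7-day. Within G1 cells alone *HYOU1* was past the fold at 7-day, with a log2 ratio of 0.62.

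*DNAJB9* (ERdj4), a cochaperone that directs misfolded proteins to degradation and represses IRE1, had a higher level at the later times than at 1-day. It was 12.5 (Ctrl), 15.6 (1-day), 23.6 (3-day) and 27.7 CPM (7-day), and was the 1 lumen chaperone of 11 with its highest level at 7-day. The log2 ratio was 0.32 (0.12 to 0.51) at 1-day and 1.14 (0.96 to 1.33) at 7-day. Within G1, S and G2M cells it was 0.46, 1.499 and 0.44 at 3-day, past the fold in S cells alone, and 1.11, 1.44 and 0.49 at 7-day, below the fold in G2M cells. In S cells the highest level was at 3-day, with 28.3 CPM beside 27.1 CPM at 7-day. When each cell was thinned to 18000 UMIs, 18.7%, 22.2%, 34.7% and 34.97% of cells in Ctrl, 1-day, 3-day and 7-day held a *DNAJB9* UMI, and 28.7%, 37.6%, 61.1% and 63.4% did so without thinning. No cell type lacking the gene was present in these cultures to set the background from free RNA.

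**Figure D2:**
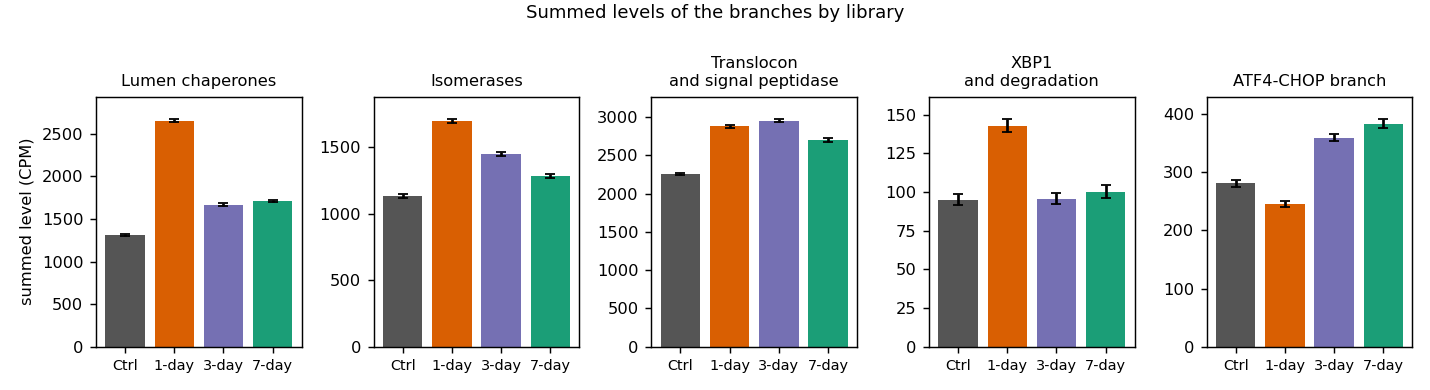
Summed CPM of the genes in each of the 5 branches (panels, each with its own axis from 0) in the 4 libraries, with bars for 95% counting intervals. Lumen chaperones reach 2653 CPM at 1-day against 1309 CPM in Ctrl, whereas the ATF4-CHOP branch is lowest at 1-day, at 245 CPM.

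Isomerases, which form and rearrange disulfide bonds or turn proline bonds, were also highest at 1-day. Of the 5 genes 4 rose at 1-day (80%), 1 at 3-day (20%) and 0 at 7-day, beside 16.9%, 19.1% and 21.2% of all genes. The 3-day share was near that of all genes. Their summed level was 1132 (Ctrl), 1693 (1-day), 1447 (3-day) and 1280 CPM (7-day). *PDIA3* (ERp57), which works with calreticulin and calnexin, was 70.7, 149, 117 and 102 CPM in the 4 libraries, with log2 ratios of 1.07 (1.00 to 1.15), 0.73 and 0.53. *PDIA4* was 88.8, 154, 112 and 111 CPM and *PDIA6* was 276, 450, 352 and 313 CPM. Cyclophilin B (*PPIB*), a prolyl isomerase that also takes part in collagen folding, was 320, 554, 469 and 341 CPM.

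*P4HB*, the founding disulfide isomerase PDI and the shared subunit of the collagen prolyl 4-hydroxylases, differed from the other isomerases. It was 377 (Ctrl), 385 (1-day), 397 (3-day) and 414 CPM (7-day). The log2 ratios of 0.03, with an interval that included 0, 0.08 and 0.14 (0.10 to 0.17) were far from the fold threshold.

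Of the 11 genes of the translocon and signal peptidase, 2 rose at 1-day (18.2%), 3 at 3-day (27.3%) and 4 at 7-day (36.4%). The share at 1-day was near the 16.9% of all genes, and the shares of all genes at the later times were 19.1% and 21.2%. At these times 0 of the 11 fell, beside 17.8%, 10.6% and 9.55% of all genes. Their summed level was 2253, 2879, 2949 and 2698 CPM in Ctrl, 1-day, 3-day and 7-day. The 4 translocon-associated proteins of the TRAP complex, which assists insertion at the SEC61 channel, did not move alike. *SSR2* was past the fold at all 3 times, at 94.8, 165, 155 and 162 CPM. *SSR3* was 128 (Ctrl), 132 (1-day), 187 (3-day) and 248 CPM (7-day), with a log2 ratio of 0.95 (0.90 to 1.01) at 7-day. *SSR4* passed the fold at 3-day alone, at 214, 295, 356 and 293 CPM, and *SSR1* was 62.6, 69.7, 74.5 and 74.4 CPM.

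Among the 3 subunits of the SEC61 channel, only the pore-forming *SEC61A1* passed the fold, at 7-day. It was 81.2, 85.6, 111 and 124 CPM in Ctrl, 1-day, 3-day and 7-day (log2 ratio 0.61, 0.53 to 0.68, at 7-day). *SEC61B* was 493, 674, 607 and 469 CPM and *SEC61G* was 487, 574, 588 and 621 CPM. Of the signal peptidase complex, which removes signal peptides, *SPCS3* rose at all 3 times with 76.8, 124, 136 and 130.2 CPM. *SPCS1* (356, 423, 464 and 336 CPM), *SPCS2* (138, 195, 152 and 122 CPM) and the catalytic subunit *SEC11C* (122, 141, 118 and 118 CPM) passed the fold against Ctrl at no time.

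The degradation genes *HERPUD1* and *SEL1L* were high at 1-day, whereas *XBP1*, which encodes the transcription factor downstream of IRE1, was not. *HERPUD1*, an organizer of the retrotranslocation complex, was 32.6, 66.5, 43.1 and 47.8 CPM. *SEL1L*, the adaptor of the ubiquitin ligase HRD1, was 14.9, 30.2, 19.5 and 17.9 CPM. Both had log2 ratios near 1 at 1-day, of 1.03 (0.92 to 1.14) and 1.02 (0.86 to 1.19). *XBP1* was 47.4 (Ctrl), 46.1 (1-day), 33.1 (3-day) and 34.5 CPM (7-day), and its log2 ratios of -0.04, -0.52 and -0.46 were not past the fold. These genes differed between phases: in Ctrl, *HERPUD1* was 51.3 CPM in G1 and 27.8 CPM in S cells, and within G1 cells it was 74.8 CPM at 1-day, below the fold. Within G2M cells neither degradation gene was past the fold at 1-day, with log2 ratios of 0.40 for *HERPUD1* and 0.58 for *SEL1L*. Within G1 cells *XBP1* was 62.4 CPM (Ctrl) and 35.1 CPM (3-day), a log2 ratio of -0.83 and past the fold.

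The summed level of the ATF4-CHOP branch had a different time course from that of the chaperones, but its genes did not move alike. Of the 4 genes at or above 10 CPM, 0 rose at 1-day, and 1 (25%) rose at 3-day and at 7-day, which was *TRIB3* at both times. Of all genes tested, 16.9%, 19.1% and 21.2% rose at the 3 times. The summed level of the 5 genes was 281 CPM (interval 275 to 287) for Ctrl, 245 CPM (239.8 to 250.5) for 1-day, and 359 and 383 CPM for 3-day and 7-day. Most of this sum came from *ATF4* and *TRIB3* in each library. The library with the lowest level was 1-day for *ATF4* and *TRIB3*, 3-day for *DDIT3* and *ASNS*, and Ctrl for *CHAC1*. *ATF4* itself was 159, 137, 191 and 207 CPM, with its lowest level at 1-day and its highest at 7-day. *TRIB3*, a pseudokinase induced by ATF4 and CHOP, was 93.6 (Ctrl), 79.5 (1-day), 143 (3-day) and 142 CPM (7-day). Its log2 ratio was -0.24 (-0.31 to -0.16) at 1-day, 0.61 (0.54 to 0.68) at 3-day and 0.60 (0.53 to 0.67) at 7-day. Within S cells alone the 1-day ratio was -0.002. Within G1 cells alone the ratio was 0.41 at 3-day and 0.46 at 7-day, below the fold, as was the 7-day ratio of 0.57 in G2M cells.

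*DDIT3* was 16.0, 15.4, 12.2 and 18.0 CPM in Ctrl, 1-day, 3-day and 7-day and over all cells passed the fold at no time. Within G1, S and G2M cells its 3-day log2 ratio was -0.52, -0.30 and -0.61, the last past the fold. In the same order its 7-day ratio was 0.47, -0.47 and -0.10, not past the fold. At 7-day its UMIs were concentrated, with 26.5% of them in 10 cells and 63 of 456 in 1 cell. That cell also held 41 UMIs of *HERPUD1*, 29 of *HSPA5* and 12 of *DNAJB9*, of 53841 in all. Without it the log2 ratio of *DDIT3* at 7-day was -0.05 (-0.24 to 0.15), and with it 0.16. *ASNS*, asparagine synthetase and a target of ATF4, was 11.6, 12.3, 10.5 and 11.3 CPM, with intervals of its ratio that included 1 at all 3 times. Within S cells alone *ASNS* was 9.44 CPM in Ctrl (441 cells) and 17.9 CPM at 1-day (92 cells), a log2 ratio of 0.92 and past the fold. Over all 1-day cells, 14.3% of its UMIs were in 10 cells, with 15 in 1 cell.

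*CHAC1*, a glutathione-degrading enzyme induced by ATF4, lay below the level set for the counts but had the largest ratio of the 35 genes. It had 9 (Ctrl), 35 (1-day), 68 (3-day) and 125 UMIs (7-day), which is 0.30 CPM (interval 0.14 to 0.57), 1.06 CPM (0.74 to 1.48), 2.12 CPM (1.64 to 2.68) and 4.92 CPM (4.10 to 5.87). The intervals of the 4 libraries did not overlap, in the order of the treatment times. Its log2 ratio was 1.82 (0.74 to 3.07), 2.82 (1.81 to 4.01) and 4.04 (3.07 to 5.20). After thinning to 18000 UMIs, 0.711% of Ctrl (0.261 to 1.54), 1.67% of 1-day (0.936 to 2.73), 4.28% of 3-day (2.89 to 6.09) and 7.65% of 7-day cells (5.57 to 10.2) held a *CHAC1* UMI. The 7-day ratio was 3.63, 3.39 and 4.59 within G1, S and G2M cells. The 1-day ratio was 0.99, 0.19 and 2.36 within the phases and 1.08 and 2.37 when the cells were split into 2 parts by barcode order. All these ratios rest on parts of the 9 Ctrl UMIs and are given without intervals. Whether the ratio of *CHAC1* differs between phases was not tested.

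The same timing was present in single cells. The sum of the 11 lumen chaperones had a median of 21 (Ctrl), 45 (1-day), 28 (3-day) and 30 UMIs per cell (7-day), with each cell thinned to 18000 UMIs. The share of cells above 38 UMIs, the 95th percentile of Ctrl, was 4.98%, 67.6%, 18.6% and 20.6%. The 5th percentile at 1-day, 22 UMIs, lay above the Ctrl median of 21. For *HSPA5* the share of cells above the 95th percentile of Ctrl was 4.38%, 47.0%, 10.9% and 9.29%, and for *SSR3* it was 3.20%, 5.56%, 12.7% and 29.5%. The distribution of the ATF4-CHOP sum shifted to higher values at the later times, with 4.27%, 2.67%, 9.90% and 11.8% of cells above 11 UMIs.

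**Figure D3:**
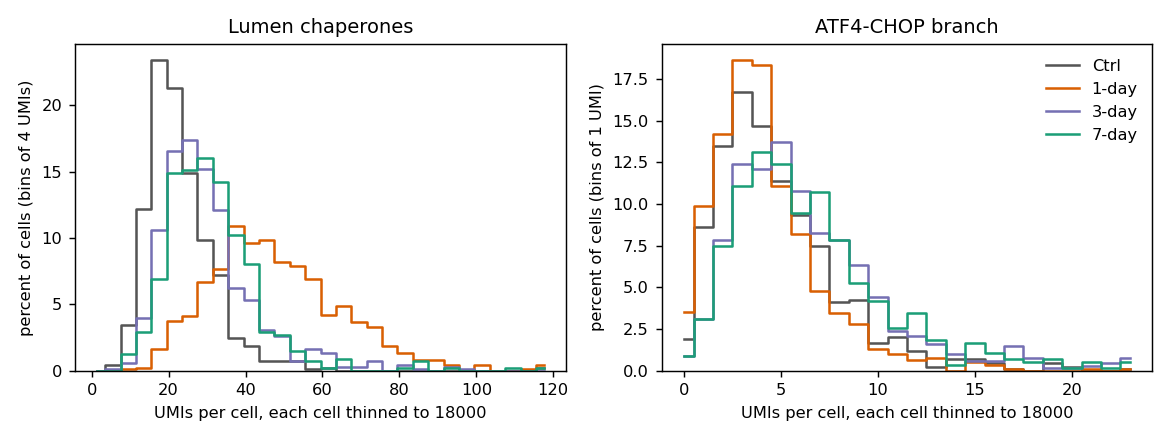
Distribution over cells of the summed UMIs of the lumen chaperones (left, bins of 4 UMIs) and of the ATF4-CHOP branch (right, bins of 1 UMI) in each library, as a percent of its cells thinned to 18000 UMIs; the last bin also holds all cells above it. The lumen chaperone curve of 1-day (median 45 UMIs) lies to the right of the other 3, and the ATF4-CHOP curves of 3-day and 7-day (medians 5 and 6 UMIs) lie to the right of Ctrl and 1-day (medians 4 UMIs).

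Across cells within a library, the sums of lumen chaperones and of isomerases had Spearman correlations of 0.35 in Ctrl (844 cells), 0.49 at 1-day (900 cells), 0.43 at 3-day (677 cells) and 0.43 at 7-day (549 cells). For lumen chaperones and the ATF4-CHOP branch the correlations were -0.01, 0.00, -0.05 and -0.04. *HSPA5* and *MANF* had 0.14 in Ctrl and 0.46 at 1-day, *HSPA5* and *HSP90B1* had 0.14 and 0.40, and *HSPA5* and *SDF2L1* had 0.12 and 0.41. *HSPA5* and *CALR* had 0.20 and 0.32. Pairs with closer values in both libraries were *HSPA5* and *PDIA4* (0.18 and 0.19), *HSPA5* and *HERPUD1* (0.14 and 0.15), and *HSPA5* and *SSR4* (0.08 and 0.06). These are descriptions of 5 pairs of branches and 11 pairs of genes within shared libraries, where the cells share depth by thinning and the counts per gene are higher at 1-day.

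Within each cell cycle phase the lumen chaperones were higher at 1-day than in Ctrl. Their summed level in Ctrl and at 1-day was 1322 and 2693 CPM in G1, 1349 and 2944 CPM in S, and 1251 and 2362 CPM in G2M cells. The ATF4-CHOP sum was lower at 1-day than in Ctrl in each phase, at 291 and 250.1 CPM in G1, 254 and 226 CPM in S, and 310.3 and 236 CPM in G2M cells. In G1 cells alone 16 members rose at 1-day, beside 16.9% of all genes, and in S cells alone 21 rose, beside 17.3%. In G2M cells alone 12 rose and 1, *TRIB3*, fell, beside 15.6% and 11.4% of all genes. Members past the fold in S cells but not in all cells were *ASNS* (log2 ratio 0.92), *SPCS2* (0.76), *DNAJB9* (0.64) and *SSR4* (0.59). These ratios rest on 92 S cells at 1-day and 441 in Ctrl. The member that lost its 1-day call in G1 cells was *HERPUD1*, and those that did so in G2M cells were *HYOU1*, *PDIA4*, *PDIA6*, *HERPUD1* and *SEL1L*. At the later times, *CALR* at 3-day (0.58 in S and 0.54 in G2M cells), *PDIA3* and *SSR4* at 3-day (0.51 and 0.40 in G2M cells), *MANF* at 7-day (0.45 in G1 cells) and *SEC61A1* at 7-day (0.57 in S and 0.51 in G2M cells) also lost theirs. Other members rose past the fold within a phase but not in all cells. At 3-day these were *HSP90B1* (0.60) and *PPIB* (0.70) in G1 cells and *SSR3* (0.61) in S cells. At 7-day they were *HYOU1* (0.62), *PDIA3* (0.82) and *SSR4* (0.59) in G1 cells and *HSPA5* (0.60) in S cells. The counts in S and in G2M cells were added after the data had been seen.

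**Figure D4:**
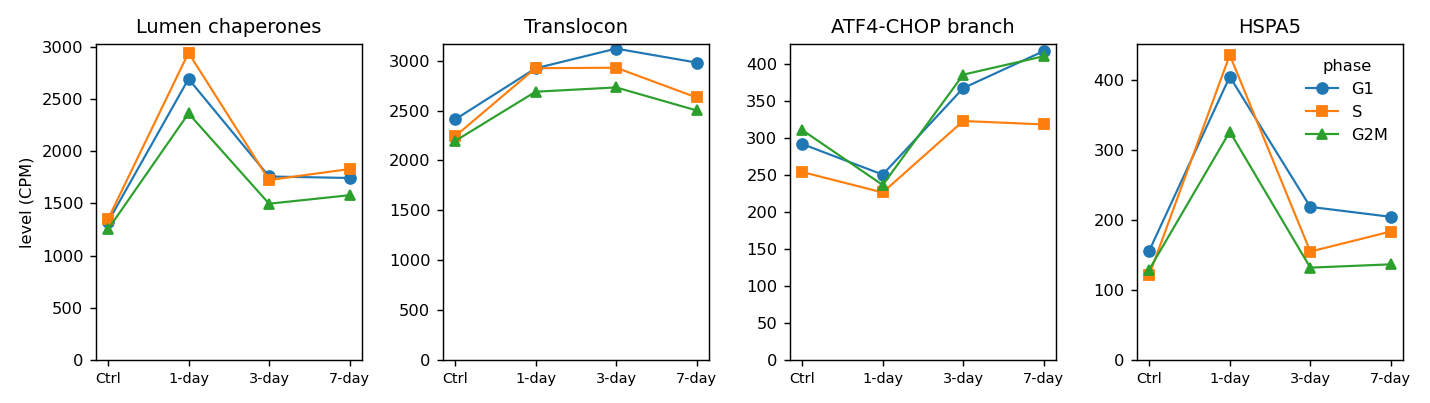
Level in CPM, from the UMIs summed over the cells of each phase, of the lumen chaperones, the translocon genes, the ATF4-CHOP branch and *HSPA5* (panels) in the 4 libraries (horizontal axis); colors and symbols mark cells called G1, S and G2M, and no error is drawn. In all 3 phases the lumen chaperones and *HSPA5* are highest at 1-day, and the ATF4-CHOP branch is lowest there.

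Other genes of the same pathways were described from lists set with earlier results of these data known. Only genes with a mean of at least 10 CPM over the 4 libraries were counted. These were 38 of 45 for ER folding and quality control, 9 of 15 collagen-modifying enzymes, 25 of 32 ATF4 targets and 10 of 13 sensors. A gene low in Ctrl can reach that mean through the treated libraries. Of 38 other genes of ER folding and quality control, 2 fell at 1-day (5.26%) and 0 at 3-day or 7-day, beside 17.8%, 10.6% and 9.55% of all genes. Of the 38, 7 rose at 1-day, 7 at 3-day and 8 at 7-day. These shares of 18.4%, 18.4% and 21.1% were near those of all genes (16.9%, 19.1% and 21.2%). Those with the highest ratios at 7-day were *ERO1A*, the oxidase that recharges disulfide isomerases, at 46.2 CPM (Ctrl) and 140.0 CPM (7-day), *CKAP4*, a membrane protein of ER sheets, at 16.6 and 39.7 CPM, and *EDEM1*, a lectin of degradation, at 11.7 and 23.8 CPM. Those with the lowest, *ERP29* (log2 ratio -0.27), *SIL1* (-0.22) and *SRPRB* (-0.20), were not past the fold at 7-day. Of 9 collagen-modifying enzymes of the ER, 3, 5 and 6 rose at the 3 times (33.3%, 55.6% and 66.7%, beside 16.9%, 19.1% and 21.2% of all genes) and 1 fell at 1-day (11.1%, beside 17.8%). *PLOD2*, a lysyl hydroxylase, was 12.0 CPM (Ctrl) and 48.9 CPM (7-day), *P4HA2*, a catalytic partner of P4HB, was 5.60 and 21.9 CPM, and *FKBP14*, a prolyl isomerase, was 4.90 and 14.5 CPM. Both *P4HA2* and *FKBP14* were below 10 CPM in Ctrl and were counted through their levels in the treated libraries. The lowest 7-day ratios in that list were above 0, at 0.12 for *CRTAP*, 0.22 for *COLGALT1* and 0.39 for *FKBP9*.

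Of 25 other targets of ATF4, 4 rose and 6 fell at 1-day, 4 rose and 2 fell at 3-day, and 6 rose and 2 fell at 7-day. The shares that rose, 16%, 16% and 24%, were near those of all genes (16.9%, 19.1% and 21.2%). The shares that fell were 24%, 8% and 8%, beside 17.8%, 10.6% and 9.55% of all genes. *SESN2*, a regulator of amino acid sensing, was 3.50 CPM (Ctrl) and 23.0 CPM (7-day), *PPP1R15A* (GADD34), which reverses the translational block of PERK, was 70.1 and 188 CPM, and the arginine transporter *SLC7A1* was 48.2 and 103 CPM. Of these, *SESN2* was below 10 CPM in Ctrl and was counted through its levels in the treated libraries. *PSPH*, of serine synthesis, was 129.7 and 42.8 CPM and *DDIT4* was 85.7 and 39.6 CPM, while the glutamine transporter *SLC1A5* had a 7-day log2 ratio of -0.39. Of 10 sensors and their partners, 1 fell at 1-day (10%) and 0 at 3-day or 7-day, beside 17.8%, 10.6% and 9.55% of all genes. At 1-day 0 rose, at 3-day 1 (10%) and at 7-day 2 (20%), beside 16.9%, 19.1% and 21.2%. The 7-day share was near that of all genes. The 2 at 7-day were *EIF2AK4* (GCN2, a kinase that senses uncharged tRNA), at 30.5 CPM (Ctrl) and 79.2 CPM (7-day), and *ERN1* (IRE1), at 11.9 and 23.4 CPM. *MBTPS1*, *ATF6B*, *EIF2AK1* and *EIF2S1* had 7-day log2 ratios of 0.47, 0.16, 0.12 and -0.12. PERK (*EIF2AK3*), added after its values were seen, lay below the level set for the counts, at 3.801, 5.10, 6.47 and 7.09 CPM in the 4 libraries, with log2 ratios of 0.42 (0.07 to 0.78), 0.77 (0.43 to 1.11) and 0.90 (0.55 to 1.25).

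Chaperones of the cytosol and mitochondria had a smaller share of genes higher at 1-day than those of the ER lumen, 7.41% beside 81.8%. The summed level of the cytosolic and mitochondrial list was nevertheless highest at 1-day. It was 7205, 12169, 8460 and 6430 CPM in Ctrl, 1-day, 3-day and 7-day, and this sum includes *HSPB1*, given below. Of 27 genes, 2 rose and 6 fell at 1-day, 3 rose and 2 fell at 3-day, and 2 rose and 1 fell at 7-day, and the median log2 ratio was -0.20, 0.02 and -0.02. The shares that rose were 7.41%, 11.1% and 7.41%, beside 16.9%, 19.1% and 21.2% of all genes. The shares that fell were 22.2%, 7.41% and 3.7%, beside 17.8%, 10.6% and 9.55%. *HSPB1* (HSP27), named for its size after its values were seen, was 834 (Ctrl), 7132 (1-day), 2421 (3-day) and 756 CPM (7-day). The genes with the highest 7-day ratios were *DNAJB6* (0.68), *BAG3* (0.64) and *DNAJB1* (0.56, not past the fold), and those with the lowest were the mitochondrial *HSPE1* (-0.59), *TRAP1* (-0.53) and *HSPD1* (-0.49). The latter pair was not past the fold.

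**Figure D5:**
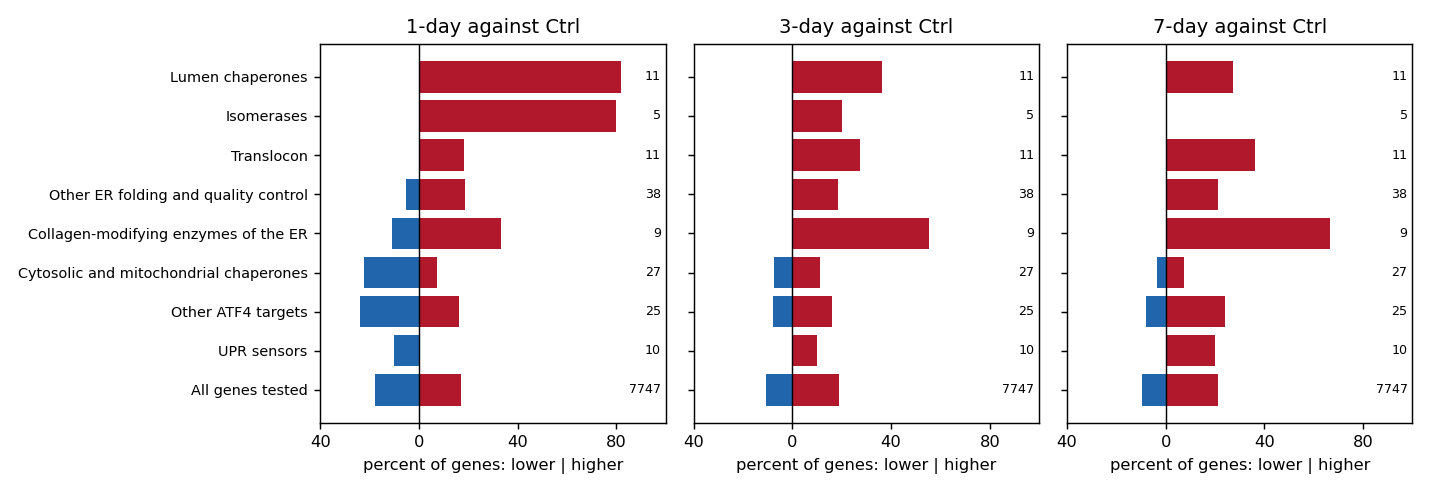
Percent of the genes in each list that were at least 1.5-fold higher (red, to the right) or lower (blue, to the left) than Ctrl at 1-day, 3-day and 7-day (panels), with the number of genes tested at the right edge of each bar's line. At 1-day 81.8% of lumen chaperones and 80% of isomerases are higher, beside 16.9% of all 7747 genes.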

How the data were processed

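Single-cell libraries of OVCA420 cells were prepared with the 10x Genomics 3′ kit, and per the labels and the study's methods the authors processed the reads with Cell Ranger 2.0.1 on GRCh38. The deposited values are raw UMI counts per gene and cell, without normalization. The matrices analysed here hold the first cells in barcode order and end partway through a cell, which was dropped; 941 of 3372 (Ctrl), 945 of 2601 (1-day), 712 of 2253 (3-day) and 572 of 2484 (7-day) listed barcodes were read. Cells with more than 200 genes and at most 20% mitochondrial UMIs were retained, 933, 937, 705 and 569 in the same order. Scrublet, run in scanpy 1.11.5, marked 38 cells (1.21%), which were retained. Phases were called with the Seurat 5.3.0 gene lists.

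The counts of the retained cells were added up per library and divided by the total to give CPM, with exact Poisson intervals; 1 CPM is at least 25.4 UMIs. Log2 ratios have exact conditional intervals and shares of cells exact binomial (Clopper-Pearson) intervals. PCR copies are removed by the UMIs, and the intervals hold no spread between cultures. Thinning to 18000 UMIs left out 89, 37, 28 and 20 shallower cells, in the order above. No test was made, each condition being 1 library. The ratio code was tested on simulated data. Alternatives were another scaling, filter, fold, depth and choice of cells. Coordinates are from GENCODE 44 by gene ID; promoters are from RefSeq (GRCh38.p14).

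The 35 members and the other lists were chosen with earlier results of these data known. All members are named; of the other lists, 3 genes were named from each end of the order of 7-day ratios, among genes of at least 10 CPM mean. Sequences of proteins were not used here.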

Additional observations from a re-analysis of the deposited data

Results flagged for a closer look

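For 6 members the ratio to Ctrl lay on one side of 0 at some treatment times and on the other side at others, with the counting interval excluding 0 each time. The difference between times was not tested, since each time is 1 library. *ATF4* had log2 ratios of -0.22, 0.27 and 0.38 at 1-day, 3-day and 7-day, and *TRIB3* had -0.24, 0.61 and 0.60. In the signal peptidase, *SPCS1* had 0.25, 0.38 and -0.080 and *SPCS2* had 0.50, 0.14 and -0.17. *SEC61B* had 0.45, 0.30 and -0.073, and *CANX* had 0.20, -0.094 and 0.10. Of these 18 ratios, those of *TRIB3* at 3-day and 7-day alone were past 1.5-fold. A scaling by size factors shifts the ratios at 1-day, 3-day and 7-day by 0.08, 0.02 and -0.06.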

How the results depend on the processing

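No paired analysis was possible because the 4 conditions hold a single library apiece, and for the same reason none could be left out. Counts of members past the fold were recomputed under 15 alternatives, 2 of them (S cells alone, G2M cells alone) chosen after seeing the data; 128 of 150 counts stayed within 1.5 times the reported one. At 1-day, 8 members rose with a 2-fold threshold, beside 9.28% of all genes, and 1 fell among G2M cells, beside 11.4%. At 3-day, 0 rose with 2-fold and 5 among G2M cells, beside 10.1% and 19.6% of all genes. At that time 1 fell among G1 and 1 among G2M cells, beside 13.5% and 9.33%. At 7-day, 5 rose with median-of-ratios size factors (*MANF*, *SEC61A1* and *TRIB3* no longer did), 1 with 2-fold and 5 among G2M cells. Of all genes, 19.3%, 10.8% and 20.6% rose under these settings. From 1-day to 3-day, 1 rose with size factors, with non-mitochondrial totals and in the first part of the cells. Of all genes, 11%, 12.4% and 13.8% did. Among G1 cells, with a mean of at least 50 CPM and among G2M cells 1 rose as well, beside 9.69%, 10.2% and 10.6%. With 2-fold 0 rose, beside 4.31%. In the other direction 4 fell with at least 50 CPM, 1 with 2-fold and 13 among S cells, beside 4.1%, 1.99% and 6.39%. From 3-day to 7-day, 2 rose among G1 cells, 1 in the second part of the cells and 1 with no filter. The shares of all genes that rose were 5.47%, 4.72% and 6.72%. Of the log2 ratios to Ctrl, 1065 stayed within the counting interval of the reported ratio, 376 moved outside it and 0 of those past the fold changed sign. The cause was not tested. Without thinning, 7.80% of 3-day and 15.5% of 7-day cells held a *CHAC1* UMI, and 28.7%, 37.6%, 61.1% and 63.4% of Ctrl, 1-day, 3-day and 7-day cells a *DNAJB9* UMI. On the sense strand alone, 6 members had an ERSE or ERSE-II, 1 a UPRE and 1 a CARE. Of all genes, 0.0842%, 0.549% and 2.31% did. Depth limits *CHAC1*, with 9 UMIs in Ctrl.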

Other observations

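Genes that are not members but hold an ERSE or ERSE-II in a RefSeq promoter were looked up after the data had been seen. Of 44 genes with either element 10 are members, and 13 of the others were at or above 10 CPM. At 1-day 4 of these 13 rose (30.8%) and 2 fell, beside 16.9% and 17.8% of all genes, and their median log2 ratio was 0.08. At 3-day 4 rose (30.8%) and 1 fell, beside 19.1% and 10.6% of all genes. At 7-day 5 rose (38.5%) and 1 fell, beside 21.2% and 9.55%. Those that rose at 1-day were *NAV2*, *PLS3*, *CNKSR1* and *TMEM120A*, and those that fell at 1-day were *RAD9A* and *SHCBP1*. *SERP1*, a stress-associated protein of the translocon, was 214 CPM (Ctrl), 196 CPM (1-day) and 223 CPM (7-day). *NUCB1*, a calcium-binding protein of the Golgi, was 18.4, 23.8 and 27.7 CPM, and was past the fold at 7-day (log2 ratio 0.587).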
